A study of Mus musculus with 3 samples.

Results

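The genes described here are 9 myosin light chain genes, Mylpf, Myl1, Myl2, Myl3, Myl4, Myl6, Myl6b, Myl7 and Myl9, with Casq2, which encodes cardiac calsequestrin and is not a light chain. They are 10 of 18193 genes that the array annotation names, and they were measured by 13 probe sets, all those that carry 1 of these symbols alone. They were chosen because Mylpf had a strong signal in these same arrays, and because the other light chains offer a setting for it. Their signals are therefore given as a description and were not tested. The name "muscle light chains" covers only some of them: Myl6 and Myl9 encode the smooth muscle and non-muscle forms.

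The samples are 3 replicates of F9 cells, a mouse embryonal carcinoma line, all in 1 group and all undifferentiated, with no treatment named. The cells grew on dishes coated with 0.2% gelatin in DMEM with 10% fetal calf serum, and RNA was taken at about 80% confluence. Each replicate was hybridised to 1 Affymetrix array, the Mouse Genome 430 2.0 type. The labels do not say whether the replicates were separate cultures, so the spread and p-values below may be technical. No differentiated or muscle sample was analysed here.

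Myosin II is a motor built from a pair of heavy chains, each of which binds an essential and a regulatory light chain. The essential chain stiffens the lever arm, and phosphorylation of the regulatory chain by myosin light chain kinases switches smooth muscle and non-muscle myosin on and tunes the striated forms. Vertebrates have separate light chain genes for fast skeletal, ventricular, atrial, smooth muscle and non-muscle myosin. Embryonal carcinoma cells, like other dividing cells, use the non-muscle forms for cortical tension and cytokinesis.

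The arrays had median signals from 36.0 to 37.8. Background was set on each array by 127 probe sets of 114 sensory receptor and hair keratin-associated genes, whose 95th percentile gave a threshold of 44.6, 46.1 and 43.2 on replicates 1, 2 and 3. All 6 F9 stem cell markers (Pou5f1, Sox2, Nanog, Zfp42, Utf1 and Dppa5a) were above background by limma's moderated test (Benjamini-Hochberg adjusted p = 0.000109 for Pou5f1). Utf1 was so on 2 of its 3 probe sets. Of the marker lists for other cells, 0 of 7 skeletal muscle, 0 of 5 cardiac and 0 of 7 fibroblast genes passed that test. The share over all named genes was 50.8%. At an unadjusted p under 0.05 the marker counts were 1 (Acta1), 0 and 0. The signals of these 3 marker lists summed per array to 162 to 215, 112 to 141 and 160 to 173, and the mean of 5 of 7, 4 of 5 and 7 of 7 markers lay under the mean threshold. In a longer fibroblast list 1 of 9 genes passed, Thy1 (105 ± 17.3, SD, n = 3; limma adjusted p = 0.00395). Of the 5 smooth muscle cell markers (266 to 341 in sum) Acta2 and Smtn passed and Tagln, Cnn1 and Myh11 did not.

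In multiples of the threshold, Mylpf stood far above the other 9 genes' single-gene probe sets. Its signal was at least 68.8 times the threshold on every array, and no other single-gene member probe set exceeded 4.02 times on any array. The 2 probe sets that Myl6 shares with pseudogenes, described below, lay higher than Mylpf, at 98.5 to 158 times. The single Mylpf probe set, 1448371_at, read 3065 on replicate 1, 3231 on replicate 2 and 3201 on replicate 3. The mean was 3166 ± 88.3 (SD, n = 3), or 6.15 ± 0.056 log2 units over the threshold. Mylpf encodes the regulatory light chain of fast skeletal muscle myosin, also called fast MLC2. In a bulk RNA sample, many cells with a little of this transcript and few cells with much of it cannot be told apart.

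Signals of different probe sets depend on how well their probes bind, so the multiples of the threshold place each probe set against background and do not rank the transcripts by abundance. With that limit, 6 of the 10 genes (60%) had their brightest probe set above the threshold on all 3 arrays, beside 53.4% of all named genes. By probe set the count was 6 of 13 (46.2%), beside 41% of all probe sets on the array. The members' shares lay near those of the whole array. Their median over genes was 1.05 log2 units above the threshold, beside 0.69 for all named genes.

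**Figure D1:**
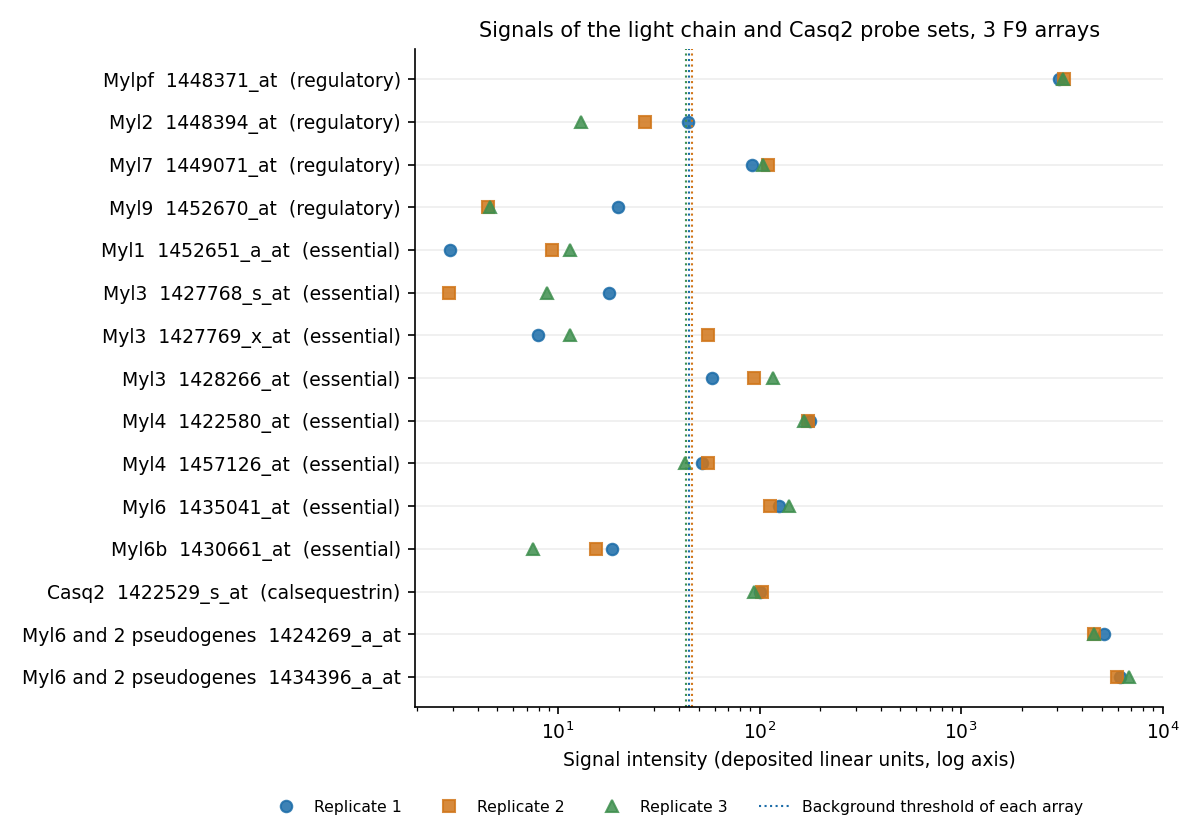
Signal intensity (deposited linear units, log axis) of each member probe set and of the 2 probe sets shared by Myl6 with pseudogenes, with 1 marker per replicate array and dotted lines at the background threshold of each array. Mylpf lies between 3065 and 3231 on the 3 arrays, and all other single-gene member probe sets lie at or below 179.

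The promoters of Mylpf and of 2 members that set it in context are shown as RefSeq gives them (GRCm38.p6), from 250 bases before the annotated start up to the base before it, 5′ to 3′ on the gene's strand. Myl1 encodes the essential chain that pairs with Mylpf in fast skeletal myosin, and Casq2 is the member outside the light chain family. Capitals mark E-boxes, CANNTG, the sequence bound by MyoD and other basic helix-loop-helix factors. The Mylpf window is chr7:127211358-127211607 (+ strand), the Myl1 window chr1:66945057-66945306 (- strand) and the Casq2 window chr3:102086165-102086414 (+ strand).
Mylpf: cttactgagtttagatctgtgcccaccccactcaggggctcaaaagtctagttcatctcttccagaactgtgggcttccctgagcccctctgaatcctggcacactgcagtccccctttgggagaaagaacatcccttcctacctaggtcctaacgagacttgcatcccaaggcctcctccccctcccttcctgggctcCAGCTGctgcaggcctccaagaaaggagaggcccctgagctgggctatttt
Myl1: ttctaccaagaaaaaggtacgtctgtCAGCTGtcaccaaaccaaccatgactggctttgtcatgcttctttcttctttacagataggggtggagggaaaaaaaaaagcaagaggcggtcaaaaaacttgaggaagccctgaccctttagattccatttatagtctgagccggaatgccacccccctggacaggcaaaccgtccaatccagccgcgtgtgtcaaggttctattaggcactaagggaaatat
Casq2: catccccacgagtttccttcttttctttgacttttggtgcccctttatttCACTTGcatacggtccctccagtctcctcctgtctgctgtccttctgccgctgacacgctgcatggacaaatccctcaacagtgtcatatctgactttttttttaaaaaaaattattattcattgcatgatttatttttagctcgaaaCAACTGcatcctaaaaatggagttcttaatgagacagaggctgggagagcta

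The Mylpf window holds 1 E-box, which begins 51 bases before the start. Myl1 holds 1, at 224 bases, with the same letters, CAGCTG, and Casq2 holds 2, at 200 and 52 bases. At least 1 E-box occurs in 66.2% of the 32851 RefSeq windows of this length, so its presence does not distinguish these genes. The octamer bound by Oct4 (ATGCAAAT, either strand) was in none of the 12 windows of the 10 genes and in 1.60% of all windows. The consensus MEF2 site (either strand) was in 1 window, that of Casq2, at 69 bases before the start, and in 2.92% of all windows. The CArG box bound by serum response factor was in 1 window each of Myl3, Myl6, Myl7 and Myl9 and in 1.47% of all windows. The octamer, the MEF2 site and the CArG box were not found in the Mylpf window. The last letters of that window, CTATTTT, match the opening of the MEF2 consensus, but a site running past the window was not scored. A match or its lack describes only these letters, not binding.

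Among the other regulatory light chains, Myl7 was above the threshold on every array and Myl2 and Myl9 on none. Myl7, the atrial regulatory chain, read 92.2, 110 and 105 on replicates 1, 2 and 3 (102 ± 8.91, SD, n = 3), between 2.07 and 2.42 times the threshold. Myl2, the ventricular and slow skeletal form, read 44.0, 26.9 and 13.0, just under the threshold on replicate 1 (0.988 times) and at 0.300 times on replicate 3. Myl9, the smooth muscle form, read 19.8, 4.48 and 4.58. The 3 values of Myl7 lay close together, whereas those of Myl2 and Myl9 spread over a 3.40-fold and a 4.41-fold range. Low signals varied widely on these arrays: the 500 probe sets nearest to Myl9 in mean signal had a median SD of 1.27 log2 units.

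Of the essential light chains, Myl4, Myl6 and Myl3 had a probe set above the threshold on all 3 arrays and Myl1 and Myl6b did not. Myl4 encodes the atrial and embryonic muscle form. Its probe set 1422580_at read 179, 173 and 165 (172 ± 6.82, SD, n = 3), up to 4.02 times the threshold. The second Myl4 probe set, 1457126_at, lay at the border, with 52.0 and 55.5 just above the threshold on replicates 1 and 2 and 42.8 just below it (0.992 times) on replicate 3. Myl4 was thus above the threshold throughout on 1 of its 2 probe sets.

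Myl3, the ventricular and slow skeletal essential chain, had 3 probe sets, which lay on different sides of the threshold. Probe set 1428266_at read 58.3, 93.8 and 117 (89.7 ± 29.5, SD, n = 3), above the threshold on all arrays but with a 2.00-fold range between them. The other 2, 1427768_s_at and 1427769_x_at, had means of 9.89 and 25.0, and only the second exceeded the threshold, on replicate 2 alone (55.5). Their names mark them as probe sets that can match several transcripts.

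Myl1, the fast skeletal essential chain, was below the threshold on every array, at 2.92, 9.37 and 11.5. The highest of these was 0.267 times the threshold. The regulatory and the essential chain of fast skeletal myosin lay on opposite sides of the threshold on all 3 arrays. Mylpf was chosen for its strong signal, so its side was known beforehand. Myl6b, an essential chain of slow muscle and non-muscle cells, was below the threshold throughout, at 18.5, 15.4 and 7.48.

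Myl6, the non-muscle and smooth muscle essential chain, read 125, 112 and 139 on 1435041_at (125 ± 13.4, SD, n = 3), above the threshold on every array. This value may not be the whole signal of the gene. A further 2 probe sets carry the symbols of Myl6 and of 2 pseudogenes, Gm8894 and Gm5526, so they are not members by the rule and were singled out after their values were seen. 1424269_a_at read 5106, 4543 and 4577, and 1434396_a_at read 6158, 5969 and 6809. They lay at 98.5 to 158 times the threshold, and the annotation does not separate the 3 genes within them.

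Casq2 stores calcium in the sarcoplasmic reticulum of heart and slow muscle. Its only probe set, 1422529_s_at, read 101, 103 and 94.2 (99.5 ± 4.74, SD, n = 3). It was above the threshold on all 3 arrays, by 2.18 to 2.26 times. The suffix of this probe set marks possible matches to more than 1 transcript.

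The Mylpf signal differed little between arrays. The SD of its log2 signal was 0.041, beside a median of 0.077 for the 500 probe sets nearest to it in mean signal, of which 84.6% had a larger SD. Casq2 (0.069 beside 0.212) and Myl4 on 1422580_at (0.057 beside 0.175) were also tighter than their neighbours in signal. The exception among the probe sets above the threshold was Myl3 on 1428266_at, with an SD of 0.513 beside 0.240, larger than that of all but 5.6% of its 500 nearest. Of the 13 member probe sets, 9 had a smaller SD than the median of probe sets with like signals. A median divides such probe sets evenly, and the share over the whole array was not computed. The count is therefore not read as particular to the members. The 7 member probe sets not above the threshold on every array had SDs from 0.195 to 1.49.

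**Figure D2:**
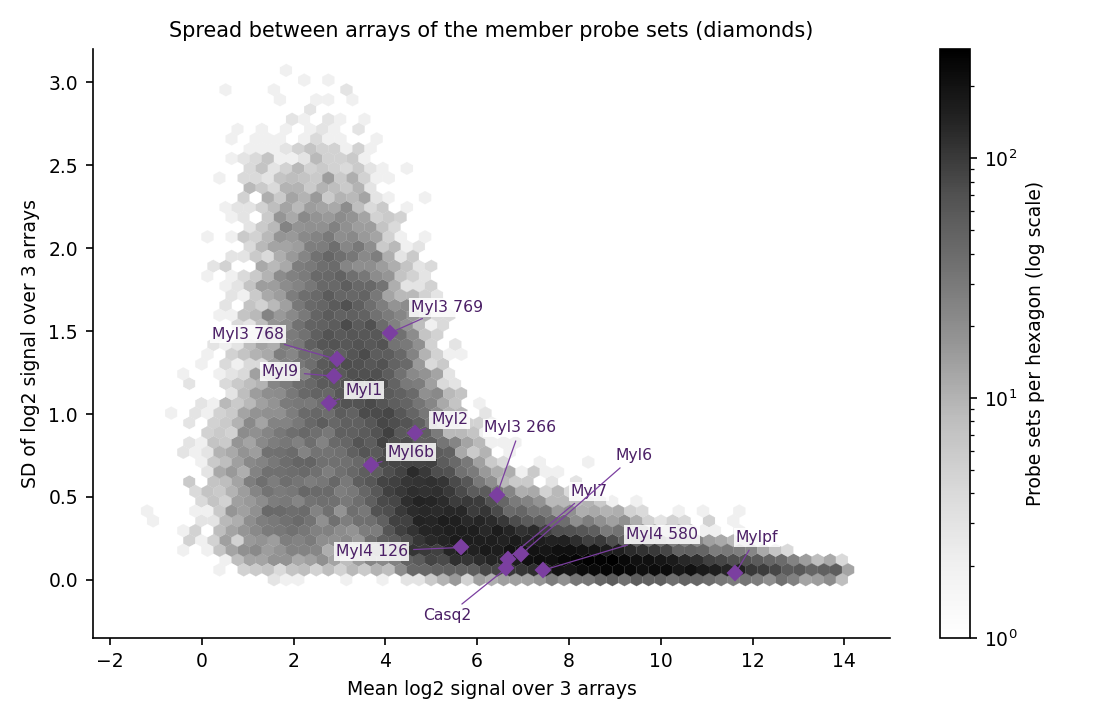
SD of the log2 signal over the 3 arrays against its mean, for all probe sets but controls (hexagons, shaded by number) and for the 13 member probe sets (diamonds, with the last digits of the probe set where a gene has several). Mylpf has an SD of 0.041 at the right, and Myl3 on 1428266_at lies at 0.513, high for its mean signal.

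Genes around the light chains in the contractile apparatus were taken from 8 lists, with 98 measured genes of 103 listed, none of them members. By limma's test with Benjamini-Hochberg adjustment, 26 of them (26.5%) were above background, beside 50.8% of all named genes. Their median lay at -0.67 log2 units, below the threshold, beside 0.69 over all named genes. The lists of other light chains, of non-muscle and smooth muscle heavy chains, and of light chain kinases and phosphatase held 13 of these 26, among 21 measured genes. The muscle heavy chain, sarcomere, calcium handling, myogenic and smooth muscle lists held the other 13, among 77 measured genes.

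Of 4 other regulatory light chain genes listed, 3 were measured, without Myl5, and 2 (66.7%) passed limma's test. The share over all named genes was 50.8%. Myl12a and Myl12b, the regulatory chains of non-muscle myosin, had signals of 4202 ± 205 and 4540 ± 300 (SD, n = 3), and both passed limma's test (adjusted p = 0.000109 for each). On the 3 arrays Myl12a read 4248, 3978 and 4381, and Myl12b read 4321, 4418 and 4881. Each had 2 probe sets, and 1 of those of Myl12b did not pass. Myl10, a further regulatory light chain gene, stood at 15.4 ± 15.6 and did not pass.

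No muscle myosin heavy chain passed, 0 of 8 measured by limma's test, beside 50.8% of all named genes. Myh7b, named after its values were seen, was the 1 heavy chain of these 8 above the threshold on all 3 arrays. At an unadjusted p under 0.05 there was 1. Myh1, Myh2 and Myh4, the adult fast skeletal heavy chains that bind Mylpf in muscle, read 9.92 ± 15.5, 23.6 ± 23.7 and 17.8 ± 13.3 (SD, n = 3), and embryonic Myh3 read 17.1 ± 11.5. The non-muscle heavy chains Myh9 (1135 ± 57.2) and Myh10 (786 ± 95.3) passed (limma adjusted p = 0.000116 and 0.000178). Myh9 passed on 4 of its 5 probe sets and Myh10 on 1 of 2. The suffix of the brightest Myh9 probe set, 1420171_s_at, marks possible matches to more than 1 transcript. With the probe set chosen by suffix Myh9 lay 4.58 log2 units over the threshold. Myh14, the remaining non-muscle chain, lay 0.42 log2 units over the threshold without passing (adjusted p = 0.0917), and smooth muscle Myh11 read 5.29 ± 5.85.

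Of the light chain kinases and phosphatase subunits 9 of 14 (64.3%) passed limma's test, beside 50.8% of all named genes. None of the dedicated myosin light chain kinases passed: Mylk read 29.0 ± 6.52, the skeletal Mylk2 57.3 ± 22.8, the cardiac Mylk3 9.10 ± 8.30 and Mylk4 2.62 ± 1.99 (SD, n = 3). Ppp1r12b, a phosphatase targeting subunit of striated muscle, did not pass either (46.9 ± 7.99). The 9 that passed, named after their values were seen, were the kinases Rock1, Dapk3, Cdc42bpa and Cdc42bpb, the phosphatase subunits Ppp1cb, Ppp1r12a and Ppp1r12c, and the phosphatase inhibitors Ppp1r14a and Ppp1r14b. For 5 of them only some probe sets passed: Rock1 (4 of 5), Dapk3 (1 of 2), Cdc42bpa (2 of 4), Ppp1r12c (1 of 2) and Ppp1r14b (2 of 3).

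Sarcomere genes were above background in 1 of 24 cases (4.17%), beside 50.8% of all named genes. The median of the list was -1.04 log2 units. The exception was Actn3, the alpha-actinin of fast muscle Z-discs, which read 138, 117 and 104 (120 ± 17.2, SD, n = 3; limma adjusted p = 0.00225). Skeletal actin Acta1 (64.8 ± 17.1) exceeded the threshold on all arrays but did not pass (adjusted p = 0.077). Cardiac actin Actc1 read 28.7 ± 6.69, and the troponin T genes Tnnt1 and Tnnt2 read 37.5 ± 21.0 and 4.71 ± 1.97.

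In the list of sarcoplasmic reticulum calcium handling, to which Casq2 belongs by function, 4 of 18 genes (22.2%) passed limma's test. The share over all named genes was 50.8%. The 4 genes were Atp2a2 (4132 ± 180), the calcium pump SERCA2 that most cells carry, Atp2a3 (186 ± 20.7), Asph (261 ± 8.26), and the endoplasmic reticulum calcium-binding chaperone Calr, named after its values were seen. Atp2a2 and Asph each passed on 4 of 6 probe sets and Atp2a3 on 1 of 2. Casq1, the fast skeletal calsequestrin, read 49.0 ± 13.2 and did not pass (adjusted p = 0.773). The calcium release channels Ryr1 (17.9 ± 4.35), Ryr2 (25.8 ± 8.20) and Ryr3 (24.2 ± 7.53) did not pass.

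Myogenic regulators passed in 5 of 19 cases (26.3%), beside 50.8% of all named genes. The muscle-determining factors did not pass. Myod1 (17.7 ± 6.60), Myf5 (5.09 ± 4.83), Myf6 (6.47 ± 6.25) and Myog (12.0 ± 11.1; SD, n = 3) lay below the threshold in the mean. Those that passed were the MADS-box factors Mef2a (191 ± 10.5), Mef2b (302 ± 43.1) and Mef2d (134 ± 4.57), with Srf and Six4, named after their values were seen. Mef2a passed on only 2 of its 6 probe sets, Mef2d on 2 of 3 and Six4 on 3 of 4. In the smooth muscle list 3 of 8 (37.5%) passed, again beside 50.8%: Acta2 (115 ± 24.1), Smtn (138 ± 23.7) and Cald1 (808 ± 125). Acta2 passed on 1 of its 3 probe sets, and lay at -3.49 log2 units when the probe set was chosen by suffix. Cald1 passed on 3 of its 5 probe sets, and lay at 2.93 log2 units with that choice, where it still passed. The brightest probe sets of these 2 genes, 1416454_s_at and 1424769_s_at, can match several transcripts.

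**Figure D3:**
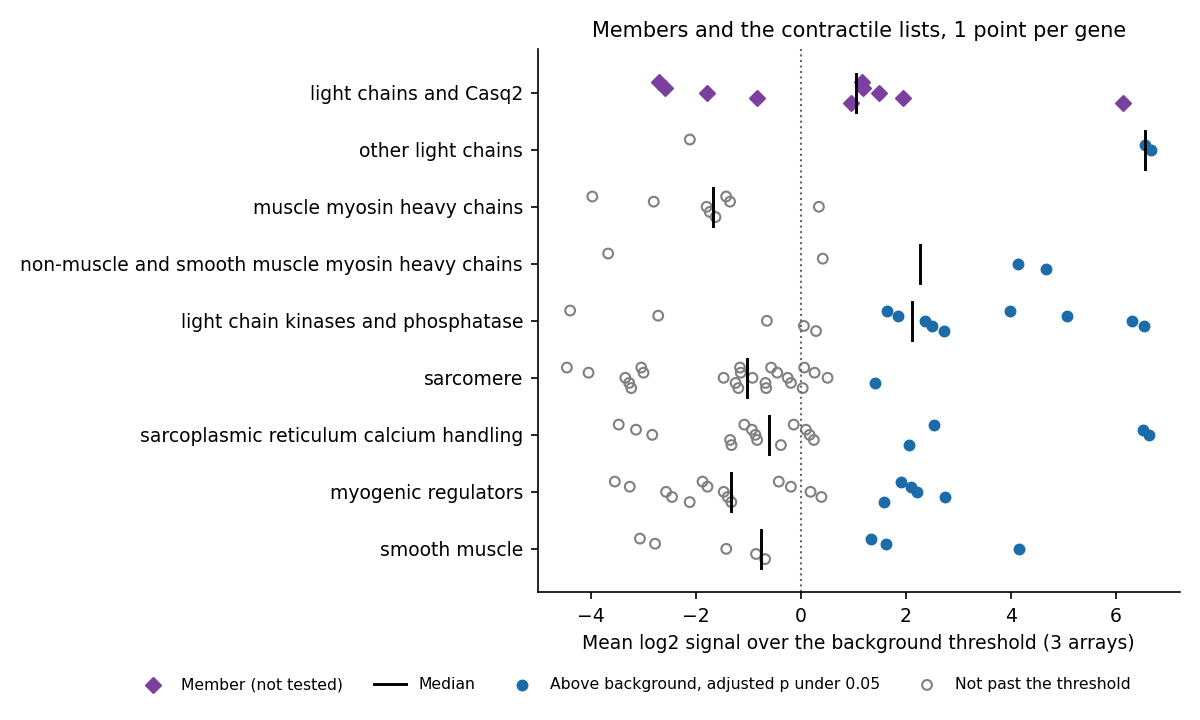
Mean log2 signal over the background threshold for each gene, by list, with 1 point per gene and a black bar at the list's median. Filled points passed limma's test with an adjusted p under 0.05, open points did not, and the 10 members (diamonds) were not tested. Mylpf lies at 6.15 and Myl12a and Myl12b at 6.56 and 6.67, while the 8 measured muscle heavy chains lie at or below 0.34.

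The genes beside Mylpf and Casq2 in the RefSeq gene table were also measured. Both measured genes before Mylpf passed limma's test: Tbc1d10b (1209 ± 106) and, with all 3 of its probe sets, Cd2bp2 (947 ± 115, 255 ± 15.9 and 665 ± 22.7; SD, n = 3). After it, Septin1 read 386, 458 and 340 and passed (adjusted p = 0.000255), and the lncRNA gene Gm4532 had no probe set. Of all named genes, 50.8% passed the same test. The intervals of Mylpf and Septin1 overlap in that table, and the part of Septin1 transcripts in the Mylpf signal was not tested. Beside Casq2, Vangl1 passed on both probe sets (582 ± 44.1 and 284 ± 28.3) and Nhlh2 (8.84 ± 6.28) did not. The pseudogene Gm18894, between Nhlh2 and Casq2, and the lncRNA gene Gm16160, beyond Vangl1, had no probe set.

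**Figure D4:**
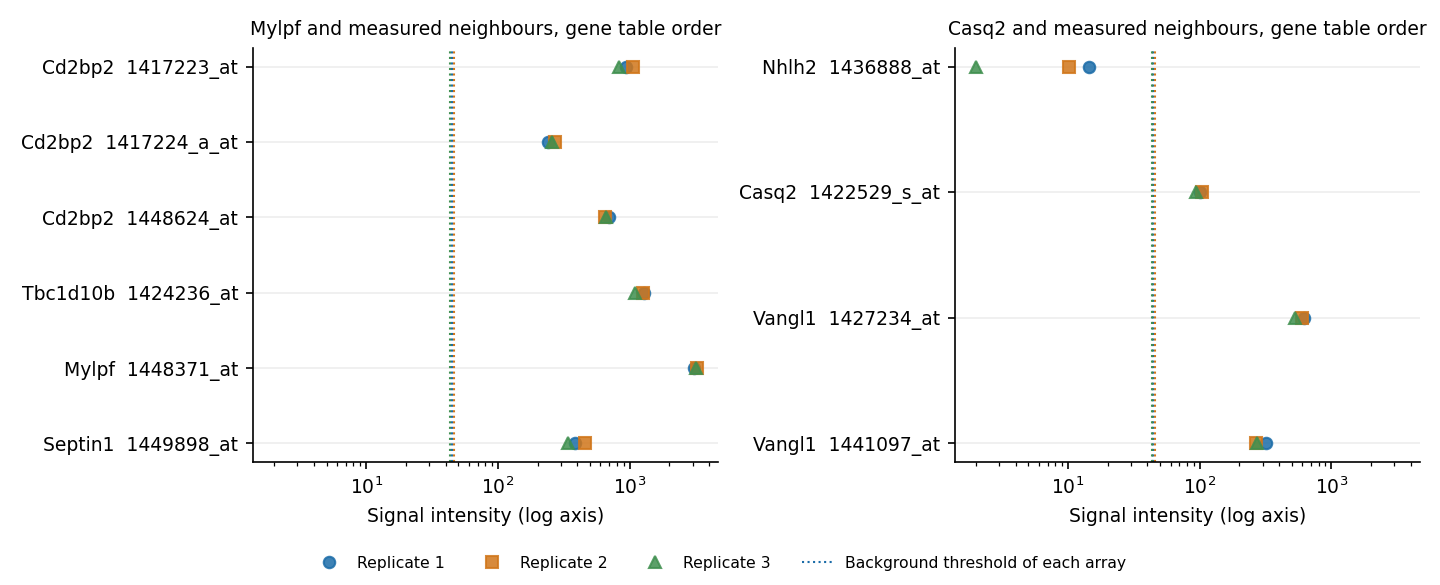
Signal intensity (log axis) of Mylpf (left), Casq2 (right) and the measured genes next to them in the order of the gene table, with 1 marker per replicate array and dotted lines at each array's background threshold. All measured neighbours of Mylpf are above the threshold on the 3 arrays, as are 53.4% of all named genes. Nhlh2 beside Casq2 is below the threshold.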

How the data were processed

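Total RNA of 3 F9 replicates was measured on 1 array each. The authors deposited linear signal intensity values made with GCOS 1.4, per the submitters' processing notes. Nothing in the labels names the summary algorithm or gives present calls. The intensity values show scaling by array: the mean after trimming 2% at each end was 250.0 on replicates 1, 2 and 3, so the values were used without another normalization. Of 45101 probe sets, 64 controls were left out, and 34945 had 1 gene symbol, 932 several and 9160 none (platform annotation of the array).

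Log2 signal minus log2 threshold (95th percentile of 127 background probe sets) was tested one-sided with limma 3.58.1 in R 4.3.3 (lmFit, eBayes), Benjamini-Hochberg adjusted over 45037 probe sets, at 0.05. A gene was represented by its probe set of highest mean signal, so a gene could pass while its other probe sets did not. The number of arrays limits the precision. Tested on simulated arrays of 45037 probe sets, the comparison with background called 95% of 200 probe sets set 1 log2 unit over the threshold, 10% at 0.5 and 0% at 0. Each simulated probe set had the median SD of those nearest to it in mean signal, with independent normal noise. The measured SDs varied around that median, so these shares may not hold on the real arrays.

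The members and lists were chosen with earlier results of these data known. Named were all members, the cell type markers, the first 4 measured genes of each list, up to 3 others called against the majority of a list, and 2 neighbours on each side of Mylpf and Casq2. Arrays shared at most 1 identical value.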

Additional observations from a re-analysis of the deposited data

How the results depend on the processing

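The alternatives were background percentiles of 90 and 99, olfactory receptors only, quantile normalization, signals under 10 set to 10, an intensity trend in eBayes, other probe set choices, and leaving out each replicate. The 6 members above the threshold on all arrays became 5 at the 99th percentile, where Myl3 fell out, and 5 without _s_at and _x_at probe sets, where Casq2 has no value. The pathway count of 26 ranged from 25 to 31, and was 26 without any 1 replicate. The array count of 17173 probe sets ranged from 14975 to 18276, and from 15789 to 16026 with a replicate left out. Mylpf lay 5.76 to 6.47 log2 units over the threshold at the percentiles tried. With pseudogene-shared probe sets counted, an alternative chosen after seeing the data, Myl6 lay at 7.14. Acta2 lay at -3.49 with the probe set chosen by suffix and without _s_at and _x_at probe sets, which leaves its other probe sets. Myh14 passed at the 90th percentile (limma adjusted p = 0.0176), and Acta1 there (0.0193) and with the intensity trend (0.0476). Under the 90th percentile 1 muscle heavy chain and 2 sarcomere genes passed. No paired analysis was possible because all samples form 1 group.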
